A study of Drosophila melanogaster with 12 samples.

Results

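The 10 genes described here make the transmitters of the Drosophila larval ventral nerve cord or load them into synaptic vesicles. They were taken by gene symbol from a list covering cholinergic, glutamatergic, GABAergic, dopaminergic, octopaminergic and tyraminergic identity: ChAT, VAChT, VGlut, Gad1, VGAT, ple, Ddc, Vmat, Tdc2 and Tbh. All 10 were found among the 14251 genes of the deposited tables, and all 10 passed the filter on low counts in each comparison.

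A neuron's transmitter is set by the enzymes that make it and the transporter that packs it into vesicles. In flies acetylcholine is the main excitatory transmitter of the central nervous system, motor neurons release glutamate onto muscle, and GABA is the main inhibitory transmitter. Dopamine, serotonin, octopamine and tyramine are made by small sets of neurons and share 1 vesicular transporter, Vmat. Outside the nervous system, ple and Ddc also supply the catecholamines that tan and harden the cuticle.

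Poly(A) mRNA was measured in the ventral nerve cords of Drosophila melanogaster larvae at the wandering stage, the last before the pupa, which were grown at 25C. The 12 samples fell into 3 groups of 4. WT carried the kdm5 140 mutation with a gKDM5 rescue transgene, so it is a rescued mutant and not an unmodified strain. L854F larvae were homozygous for kdm5[L854F], and JmjC larvae were homozygous for kdm5[JmjC*], which the series title calls enzymatically inactive. KDM5 is a chromatin protein whose JmjC domain removes methyl groups from lysine 4 of histone H3. Sex, the number of larvae per sample and any batch are not given in the labels, nor whether replicates came from separate animals, so p-values measure the spread between these samples.

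The samples held 15103631 to 16850705 counts each. The kdm5 transcript itself stood at 665 to 734 CPM (counts scaled to library size with TMM factors) in WT, 728 to 794 in L854F and 726 to 813 in JmjC, which says nothing about the alleles, since neither is labelled as a deletion. The summed level of 8 neuronal markers was 5140 to 6214 CPM in WT, 5281 to 6285 in L854F and 5428 to 6450 in JmjC, and 8 glial and 6 neuroblast markers were also detected, with 8 glial markers at 1359 to 2575 CPM over all samples. Markers of muscle, hemocytes, fat body and salivary gland summed to at most 118 CPM per list in any sample. The muscle sum was lower in JmjC, as given beside Ddc, where calls among the neuroblast markers are given too. In bulk tissue, fewer cells of a type and less RNA per cell cannot be told apart.

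Replicate 3 stood low for these genes in each group. It was the lowest of its group for 7 of the 10 genes in WT, 7 in L854F and 8 in JmjC, and VAChT, VGlut, VGAT, Vmat and Tdc2 were lowest in replicate 3 of all 3 groups. The labels do not call the replicate numbers a batch, and results that turn on JmjC replicate 3 are given with and without it.

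Per kilobase of the deposited gene length, the order of the mean levels in WT ran VGlut, Gad1, Vmat, VGAT, Ddc, VAChT, ChAT, Tbh, Tdc2 and ple. VGlut, the vesicular glutamate transporter, stood at 97.8 ± 6.51 CPM per kb (SD, n = 4) and ple, tyrosine hydroxylase, at 2.41 ± 1.14, a ratio of 40.6. The WT ranges overlapped for the neighbours Vmat and VGAT, VGAT and Ddc, and ChAT and Tbh, and the other neighbours were separate. Within a transmitter system the levels were unequal: VAChT stood 1.70 times above ChAT, Gad1 1.58 times above VGAT, Tbh 1.96 times above Tdc2 and Ddc 17.7 times above ple. In both mutants VGAT stood above Vmat, with overlapping ranges. Per kilobase of merged exons in the BDGP6.54 annotation, VGAT stood above Vmat in WT too, at 45.2 against 40.3 CPM per kb, so the order of these neighbours depends on the length used. On merged exons VAChT also stood above Ddc in JmjC, at 30.6 against 25.0. The ratios depend on the length too, with Gad1 in WT at 71.4 by deposited length and 60.1 by merged exons. By deposited length the JmjC ranges of Ddc and VAChT overlapped. In JmjC the ranges of VGlut and Gad1, 90.0 ± 9.08 and 88.7 ± 16.1 CPM per kb (SD, n = 4), overlapped as well.

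**Figure D1:**
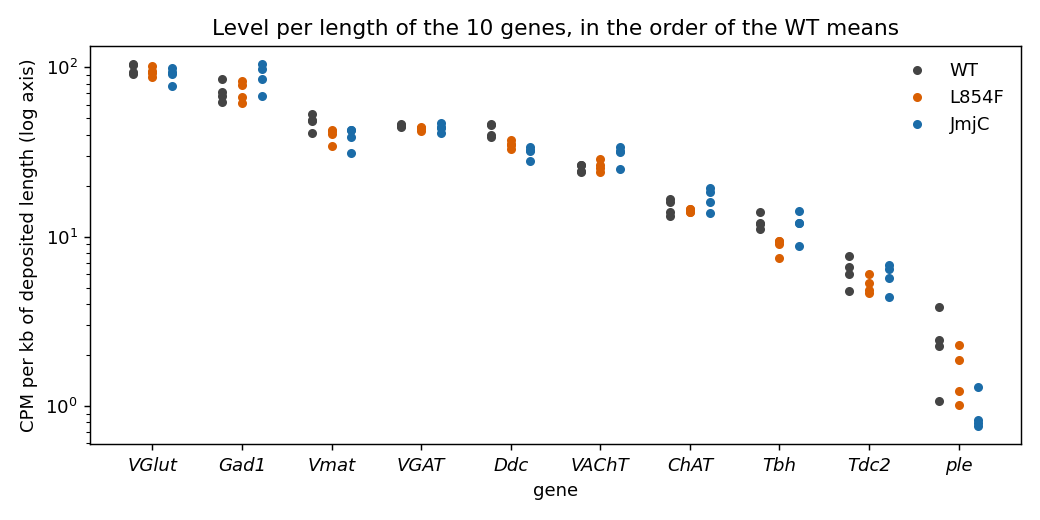
CPM per kb of deposited gene length (log axis) for the 10 genes, 1 point per sample, coloured by group and ordered by the WT mean. VGlut has the highest mean and ple the lowest in every group, with a WT ratio of 40.6 between their means.

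In L854F against WT, Ddc and Tbh were the 2 genes of the 10 that were called. They passed an adjusted p of 0.05 (edgeR quasi-likelihood test, Benjamini-Hochberg over all genes tested), both lower, beside 5.54% of all 9105 genes tested (3.04% higher and 2.49% lower). Ddc, which makes dopamine and serotonin from their precursors, fell by 17.8%, a call lost in 5 of 8 leave-one-out fits. Tbh, which makes octopamine from tyramine, fell by 27.8%, a call kept in all 8. The median log2 fold change of the 10 was −0.16, against 0.00 over all genes. ChAT, VAChT, VGlut, Gad1 and VGAT were not called. The samples of 3 genes did not overlap between the groups, VGAT, Ddc and Tbh, all lower, beside 12.7% of all genes (6.61% higher and 6.04% lower).

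In JmjC against WT, 3 of the 10 passed, beside 17.3% of all 9244 genes (9.66% higher and 7.67% lower). Of the enzymes of dopamine synthesis, ple fell by 61.9% and Ddc fell by 25.9%. VAChT, the vesicular acetylcholine transporter, rose by 20.9%, a call that most leave-one-out fits did not keep. The median log2 fold change of the 10 was −0.08, against 0.00 over all genes. Ddc was the 1 gene whose samples did not overlap between the groups, beside 22.7% of all genes (11.9% higher and 10.9% lower). Both comparisons use the same WT samples.

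**Figure D2:**
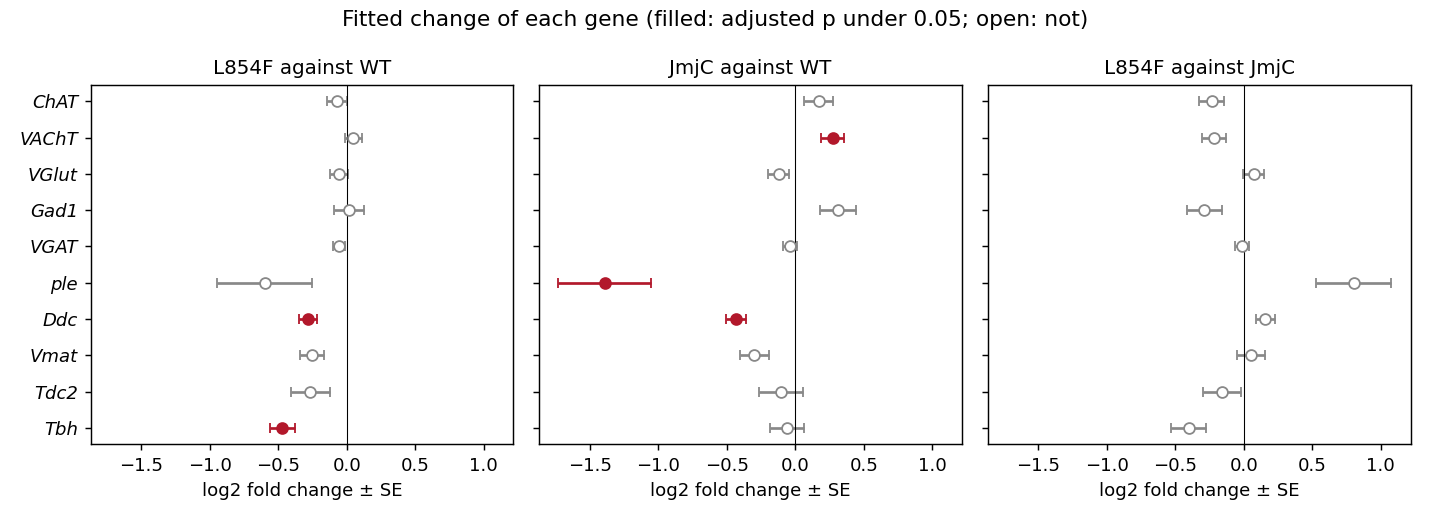
Log2 fold change of each of the 10 genes (x axis; bars are ± SE of the fit) in the 3 comparisons, filled where the adjusted p was under 0.05. Ddc is filled left of 0 in both mutants against WT, Tbh in L854F and ple in JmjC, and VAChT is filled right of 0 in JmjC.

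Between the mutants, none of the 10 passed edgeR's test without a replicate term, beside 16.0% of all 9207 genes (7.2% higher and 8.8% lower in L854F); 6 had an unadjusted p under 0.05, and DESeq2 called Tbh and ple, beside 16.8% of the genes it tested. Deviations from the group means correlated weakly between same-numbered L854F and JmjC samples, at 0.133 to 0.210. When the replicate number entered the fit as a block, 3 of the 10 passed, all lower in L854F, beside 22.1% of all genes (11.7% lower). No gene of the 10 had non-overlapping samples between the mutants, beside 20.9% of all genes (10.3% higher and 10.7% lower). Those called with the block were VAChT, at a log2 fold change of −0.21 (edgeR adjusted p = 0.0169), Gad1, at −0.28 (adjusted p = 0.0199), and Tbh, at −0.39 (adjusted p = 0.00559). Without JmjC replicate 3 and with no block, ChAT, VAChT, Gad1 and Tbh were called, again all lower in L854F, at −0.32, −0.30, −0.40 and −0.52 (edgeR adjusted p from 0.00378 to 0.0244), beside 18.6% of all genes (9.83% lower). Each of these genes was lowest of its group in JmjC replicate 3, so leaving it out raises the JmjC mean. Over all 8 leave-one-out fits, edgeR adjusted p rose to 0.259 for ChAT, 0.283 for VAChT, 0.352 for Gad1 and 0.140 for Tbh.

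**Figure D3:**
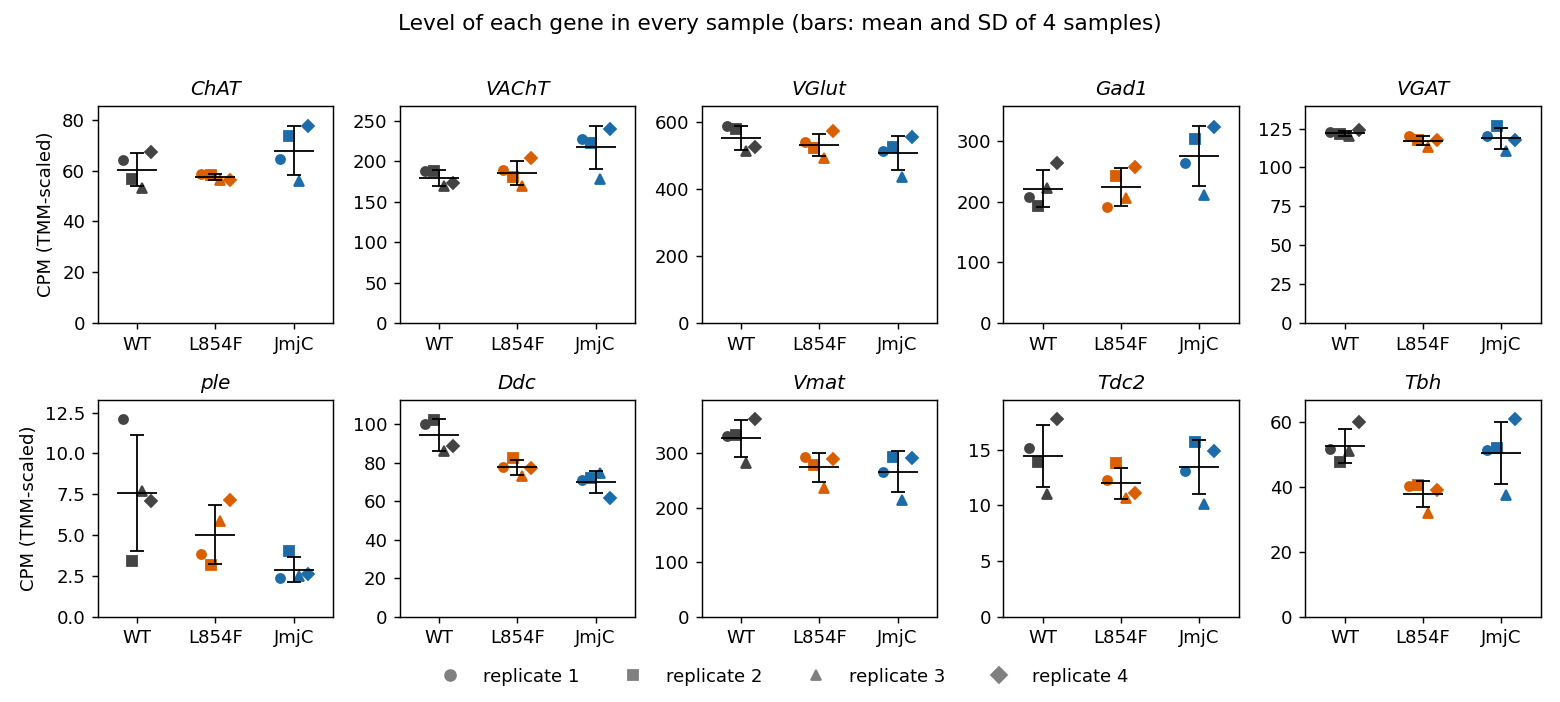
TMM-scaled CPM of each gene in every sample (y axes start at 0 and differ between panels), with marker shape for the replicate number and bars for the mean and SD of 4 samples. The 4 L854F points of Tbh lie at 32.0 to 40.6 CPM, all below WT, and the 4 JmjC points of Ddc lie at 61.7 to 74.6 CPM, all below WT.

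ChAT, choline acetyltransferase, makes acetylcholine, and VAChT loads it. Both start at the same position (dm6, annotation BDGP6.54): ChAT, FBgn0000303, spans 3R:18705501-18732344 on the plus strand, and VAChT, FBgn0270928, spans 3R:18705501-18718916 inside it. They share 606 exon bases, so how the counting split reads between them is uncertain. VAChT levels in replicates 1 to 4 were 188, 188, 170 and 173 CPM in WT, 189, 181, 170 and 205 in L854F, and 228, 223, 178 and 240 in JmjC. In JmjC 3 samples lay above all WT samples, and replicate 3 lay within the WT range. The log2 fold change in JmjC was 0.27 (SE 0.08, edgeR adjusted p = 0.0471).

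That call held without JmjC replicate 3, at 0.36 (edgeR adjusted p = 0.00178), and was lost on leaving out any other single WT or JmjC sample, with adjusted p up to 0.124. With the ChAT and VAChT counts summed, an alternative chosen after the data were seen, the change was 0.25 (edgeR adjusted p = 0.0683). In L854F VAChT stood at 0.05 (SE 0.06, edgeR adjusted p = 0.755). ChAT averaged 60.4 ± 6.58 CPM in WT, 57.5 ± 1.28 in L854F and 67.9 ± 9.79 in JmjC (SD, n = 4), with no call against WT. Of the 8 neuronal markers, 2 vesicle release genes were higher in JmjC, nSyb at 0.32 (edgeR adjusted p = 0.0323), with overlapping ranges and a call lost without WT replicate 1 or 3 or JmjC replicate 1, 2 or 4, and Syx1A at 0.80 (edgeR adjusted p = 0.00595), and their part in the VAChT result was not tested. The neuronal marker sum in JmjC replicates 1 to 4 was 5944, 5841, 5428 and 6450 CPM, lowest in replicate 3.

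VGlut, FBgn0031424, at 2L:2400295-2410662 on the plus strand, was the most abundant of the 10. Its mean was 553 ± 36.8 CPM in WT, 533 ± 33.0 in L854F and 509 ± 51.4 in JmjC (SD, n = 4), and the ranges of the groups overlapped. Its log2 fold change against WT was −0.05 (SE 0.06) in L854F and −0.12 (SE 0.08) in JmjC, neither past the threshold.

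Gad1, glutamate decarboxylase, makes GABA from glutamate. It is FBgn0004516 at 3L:4074077-4088744 on the minus strand. Replicates 1 to 4 of Gad1 stood at 208, 192, 223 and 263 CPM in WT, 191, 243, 207 and 257 in L854F, and 264, 303, 210 and 324 in JmjC. In JmjC 3 samples stood above the highest WT sample and replicate 3 stood among the WT values. Its fitted log2 difference from WT in JmjC was 0.31 (SE 0.13, edgeR adjusted p = 0.127). Without JmjC replicate 3, the lowest JmjC sample for Gad1, it was 0.42 (edgeR adjusted p = 0.0196), beside 18.2% of genes called in that fit. Over all 8 leave-one-out fits the difference ran from 0.23 to 0.42, with edgeR adjusted p up to 0.276.

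VGAT, the vesicular GABA transporter, is FBgn0033911 at 2R:14198478-14201249 on the minus strand. Its replicates lay close together, at 122 ± 1.53 CPM in WT, 117 ± 2.97 in L854F and 119 ± 6.66 in JmjC (SD, n = 4). The L854F samples, at 113 to 120.3 CPM, lay just below the WT samples without overlap, as did 6.04% of all genes, with a log2 fold change of −0.06 (edgeR adjusted p = 0.526). The log2 ratio of Gad1 to VGAT within a sample averaged 0.85 in WT and 1.19 in JmjC, a difference of 0.34 (exact two-sided permutation p = 0.0571, adjusted p = 0.306 over 15 ratio tests).

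ple, tyrosine hydroxylase, carries out the rate-limiting step of dopamine synthesis. It is FBgn0005626 at 3L:6713356-6719525 on the minus strand. Its levels in replicates 1 to 4 were 12.1, 3.38, 7.71 and 7.10 CPM in WT, 3.86, 3.19, 5.83 and 7.14 in L854F, and 2.38, 4.04, 2.50 and 2.60 in JmjC. WT spread widely, and its replicate 2 lay below JmjC replicate 2, so the groups overlapped. The counts behind these levels were low, 54 to 203 in WT, 51 to 118 in L854F and 39 to 65 in JmjC. The log2 fold change in JmjC was −1.39 (SE 0.34, edgeR adjusted p = 0.0166), and without JmjC replicate 1 it was −1.31 (edgeR adjusted p = 0.0532). In L854F it was −0.60 (SE 0.35, edgeR adjusted p = 0.410), −0.28 without WT replicate 1 and −0.84 without WT replicate 2. L854F stood 0.80 above JmjC (SE 0.28, edgeR adjusted p = 0.0723), and this was called without L854F replicate 2, at 0.97 (edgeR adjusted p = 0.0386), or without JmjC replicate 2, at 1.01 (edgeR adjusted p = 0.0481). Those were the lowest L854F and the highest JmjC sample. Over the 8 leave-one-out fits the difference ran from 0.58 to 1.01, with edgeR adjusted p up to 0.191.

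Ddc, aromatic amino acid decarboxylase, is FBgn0000422 at 2L:19116483-19120306 on the minus strand, and was the 1 gene of the 10 called in both mutants against WT. Its levels in replicates 1 to 4 were 100.2, 102, 86.2 and 88.6 CPM in WT, 77.7, 82.4, 72.8 and 77.2 in L854F, and 71.0, 72.1, 74.6 and 61.7 in JmjC. Every sample of both mutants lay below every WT sample. Of all genes, 6.04% in L854F and 10.9% in JmjC lay wholly below WT in this way.

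The log2 fold change of Ddc was −0.43 in JmjC (SE 0.08, edgeR adjusted p = 0.00266), and leaving out any 1 sample kept the call, with adjusted p from 0.00283 to 0.0102. In L854F it was −0.28 (SE 0.07, edgeR adjusted p = 0.0319), and the call was lost without WT replicate 1 or 2 or without L854F replicate 1, 3 or 4, with adjusted p up to 0.0930. The summed level of 10 epidermal and tracheal markers, from tissues that also use ple and Ddc, was 153 to 181 CPM in WT, 127 to 141 in L854F and 130 to 151 in JmjC. Both mutants lay wholly below WT in that sum, 9 of the 10 markers were tested and edgeR called none in either mutant against WT, with 3 and 2 at an unadjusted p under 0.05 in L854F and JmjC and 1 and 0 called by DESeq2. The muscle marker sum was 28.4 to 71.0 CPM in WT, 20.2 to 42.1 in L854F and 15.2 to 26.2 in JmjC, with JmjC wholly below WT. Of 7 muscle markers tested, edgeR called Mlc2 lower in L854F, at −2.59, and Mlc2, Tm2 and TpnC73F lower in JmjC, with a median log2 fold change of −2.07 over the 7. Of the 6 neuroblast markers, mira was lower in both mutants against WT, at −0.28 in L854F (edgeR adjusted p = 0.0218) and −0.54 in JmjC (edgeR adjusted p = 0.000816). ase was higher in JmjC, at 0.26 (edgeR adjusted p = 0.0260), and edgeR called no other neuroblast marker. Between the mutants mira was higher in L854F, at 0.27 (edgeR adjusted p = 0.0408). The part of any of these marker lists in the Ddc and ple results was not tested.

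Vmat, FBgn0260964, at 2R:13513132-13534251 on the minus strand, packs all the monoamines. Replicates 1 to 4 of Vmat stood at 333, 333, 281 and 362 CPM in WT, 294, 278, 236 and 290.1 in L854F, and 266, 294, 213 and 291 in JmjC. Apart from WT replicate 3, every WT sample lay above every sample of both mutants. Its log2 fold change was −0.25 in L854F (SE 0.09, edgeR adjusted p = 0.123) and −0.30 in JmjC (SE 0.10, edgeR adjusted p = 0.0743). Without WT replicate 3 the JmjC change was −0.37 and called (edgeR adjusted p = 0.0394), and DESeq2 called it on all 8 samples, at −0.30 (DESeq2 adjusted p = 0.0321). Over the 8 leave-one-out fits the JmjC change ran from −0.37 to −0.21, with edgeR adjusted p up to 0.161. In the authors' deposited table, which rests on the same samples, the JmjC change of Vmat was −0.30 with an adjusted p of 0.0398. CG13330, on the other strand, shares 2129 exon bases with Vmat, and whether the counting used strand is not given in the sources used here.

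Tdc2, neuronal tyrosine decarboxylase, makes tyramine. It is FBgn0050446 at 2R:6684745-6689974 on the minus strand. It averaged 14.4 ± 2.78 CPM in WT and 13.4 ± 2.46 in JmjC (SD, n = 4), and the L854F samples stood at 10.7 to 13.8, with overlapping ranges. Its log2 fold change against WT was −0.27 (SE 0.14, edgeR adjusted p = 0.355) in L854F and −0.10 (SE 0.16, edgeR adjusted p = 0.704) in JmjC.

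Tbh, tyramine beta-hydroxylase, turns tyramine into octopamine. It is FBgn0010329 at X:7995697-8027394 on the plus strand. Its levels in replicates 1 to 4 were 51.7, 47.7, 51.0 and 60.0 CPM in WT, 40.2, 40.6, 32.0 and 38.9 in L854F, and 51.2, 51.9, 37.5 and 60.8 in JmjC. The L854F samples lay wholly below WT, while JmjC replicates 1 and 2 lay within the WT range, replicate 4 just above it and replicate 3 below it. In L854F its log2 fold change was −0.47 (SE 0.09, edgeR adjusted p = 0.0110), and leaving out any 1 sample kept the call, with adjusted p from 0.0124 to 0.0283. In JmjC it was −0.06 (SE 0.13, edgeR adjusted p = 0.773). The log2 ratio of Tdc2 to Tbh averaged −1.84 in WT and −1.62 in L854F, a difference of 0.22 (exact two-sided permutation p = 0.114).

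The ratios of ChAT to VAChT, ple to Ddc and ple to Vmat were tested in the same way, and of the 15 ratio tests none reached an exact p of 0.05, with adjusted p from 0.306 to 0.914. The log2 ratio of ple to Vmat differed from WT by −0.86 in JmjC (exact two-sided permutation p = 0.0857).

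Beyond the 10, 36 listed genes make, move or break down these or related transmitters, histamine included, supply a cofactor, or set the identity of monoamine neurons or tune their enzymes. Of these, 2 of 32 tested were called in L854F against WT (1 higher, 1 lower), 6 of 33 in JmjC against WT (3 higher, 3 lower) and 5 of 32 between the mutants (2 higher and 3 lower in L854F), by edgeR and beside the shares of all genes given above. Of the 2 acetylcholine genes, ChT for choline uptake and Ace for breakdown, edgeR called 0, with Ace at an unadjusted p under 0.05 and called by DESeq2 in both comparisons of L854F. Ace stood 0.24 above WT in L854F (edgeR adjusted p = 0.0601).

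Trhn, neuronal tryptophan hydroxylase, makes the serotonin precursor that Ddc then decarboxylates. Its levels in replicates 1 to 4 were 16.3, 12.6, 16.1 and 17.6 CPM in WT, 9.24, 10.6, 11.3 and 11.1 in L854F, and 15.8, 15.5, 17.9 and 19.3 in JmjC. The L854F samples lay below all 8 others. The log2 fold change of Trhn was −0.57 against WT (SE 0.12, edgeR adjusted p = 0.0169; 0.0537 without L854F replicate 1) and −0.69 against JmjC (SE 0.10, edgeR adjusted p = 0.00122).

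The ebony gene, e, couples beta-alanine to dopamine and histamine. Replicates 1 to 4 of e stood at 75.1, 67.0, 65.8 and 69.4 CPM in WT, 72.6, 75.0, 63.7 and 65.4 in L854F, and 46.6, 49.0, 53.6 and 40.4 in JmjC. The JmjC samples lay below all 8 others. Its log2 fold change in JmjC was −0.55 against WT (SE 0.08, edgeR adjusted p = 0.00096), and L854F stood 0.55 above JmjC (SE 0.09, edgeR adjusted p = 0.00177).

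Of the 5 genes for tetrahydrobiopterin, the cofactor of ple and Trhn, pr fell in JmjC, at −0.26 (edgeR adjusted p = 0.0260), and Dhpr rose, at 0.29 (edgeR adjusted p = 0.0283), each call being lost in 5 of 8 leave-one-out fits. For pr these were the fits without WT replicate 3 or 4 or JmjC replicate 1, 2 or 4, and for Dhpr without WT replicate 2, 3 or 4 or JmjC replicate 1 or 3. Between the mutants, pr was higher in L854F at 0.42 (edgeR adjusted p = 0.00429), and Dhpr lower at −0.27 (edgeR adjusted p = 0.0397), a call kept in 1 of 8 leave-one-out fits, that without JmjC replicate 2. Among 11 glutamate and GABA genes, Gat, the plasma membrane GABA transporter, averaged 332 ± 36.2 CPM in WT, 259 ± 52.8 in L854F and 426 ± 69.3 in JmjC (SD, n = 4). Gat was lower in L854F than in JmjC, at −0.71 (edgeR adjusted p = 0.00618), and higher in JmjC than in WT, at 0.36 (edgeR adjusted p = 0.0496), a call kept in 1 of 8 leave-one-out fits, that without JmjC replicate 3. It is also 1 of the 8 glial markers, whose sum was 1624 to 1957 CPM in WT, 1359 to 1765 in L854F and 2074 to 2575 in JmjC. In JmjC against WT the astrocyte gene alrm rose by 1.65 on the log2 scale (edgeR adjusted p = 4.8e-07) and moody fell by 0.31 (edgeR adjusted p = 0.0223). Between the mutants alrm was lower in L854F, at −1.46 (edgeR adjusted p = 8.4e-06). The glial markers moody and wrapper were higher in L854F than in JmjC, at 0.39 (edgeR adjusted p = 0.00594) and 0.24 (edgeR adjusted p = 0.0195). Without alrm, left out after its value was seen, the sum of the other 7 was 1428 to 1699 CPM in WT, 1143 to 1441 in L854F and 1396 to 1799 in JmjC, so that WT and JmjC overlapped. Their part in the Gat result was not tested. Gs1, a glutamine synthetase, fell in JmjC by 0.29 on the log2 scale (edgeR adjusted p = 0.0211), a call lost without WT replicate 4 or JmjC replicate 1. In L854F the Gs1 change was alike, at −0.28, not called by edgeR (adjusted p = 0.0758) but called by DESeq2. The L854F samples lay wholly below WT, as did 6.04% of all genes, and L854F differed from JmjC by 0.01.

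The transporter gene lovit stood at 4.55 to 5.22 CPM in WT, 6.49 to 9.21 in L854F and 6.11 to 8.60 in JmjC, so both mutants lay wholly above WT. Of all genes, 6.61% in L854F and 11.9% in JmjC did so. It rose in L854F, at 0.60 (edgeR adjusted p = 0.0408), a call lost in every one of 8 leave-one-out fits, and in JmjC, at 0.56 (edgeR adjusted p = 0.0210), a call lost without WT replicate 1 or 4 or JmjC replicate 4. DAT and SerT, which take dopamine and serotonin back up, were not called in any comparison. Of the 6 tested genes for monoamine uptake, transport and inactivation, 5 had an unadjusted p under 0.05 in JmjC against WT. Besides e and lovit these were SerT, at −0.29 (edgeR adjusted p = 0.159), prt, at 0.27 (edgeR adjusted p = 0.0597), and CarT, at 0.62 (edgeR adjusted p = 0.0645). Of 5 genes that set monoamine neuron identity or tune the enzymes edgeR and DESeq2 called 0, with 1 at an unadjusted p under 0.05, in JmjC against WT.

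**Figure D4:**
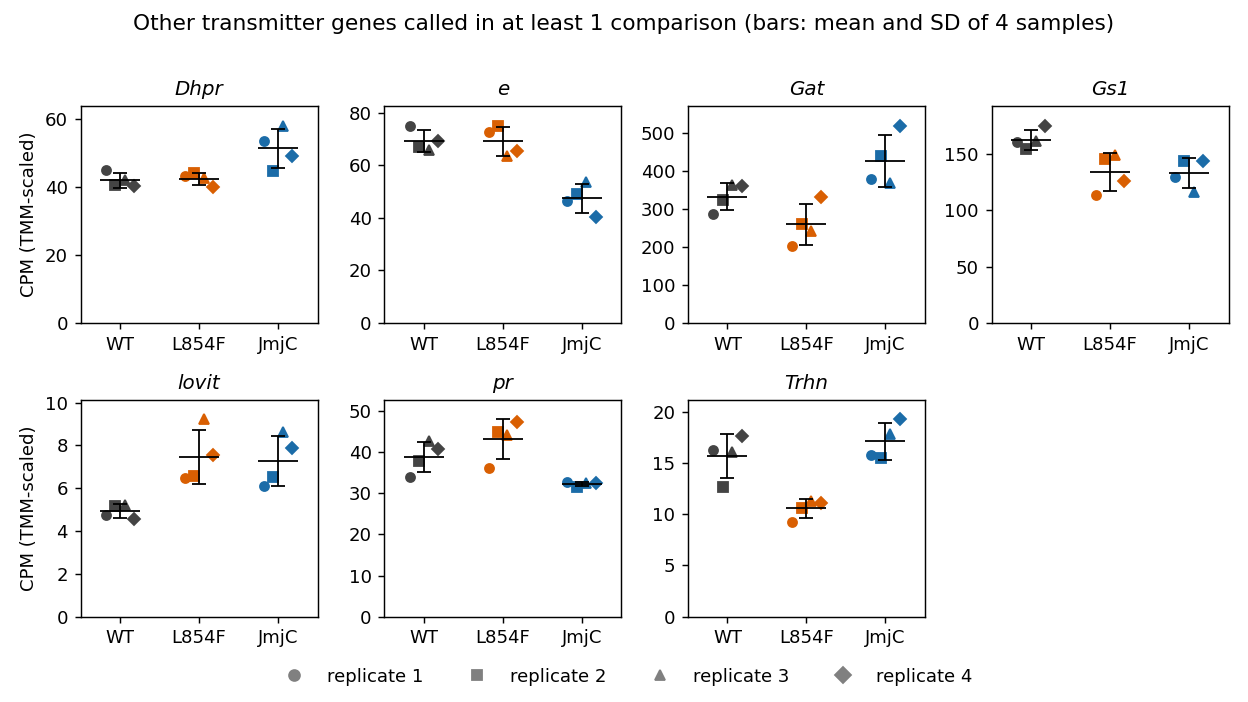
TMM-scaled CPM of the 7 listed transmitter genes called in at least 1 comparison, by sample (y axes start at 0 and differ between panels), with bars for the mean and SD of 4 samples. The L854F points of Trhn lie at 9.24 to 11.3 CPM and the JmjC points of e at 40.4 to 53.6 CPM, each below all other samples.

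As a description over 12 samples that share the group structure and library scaling, the genes whose log2 levels were most like each called gene, by Pearson r among 9012 genes, were as follows. For VAChT they were EloA (0.961), CG8500 (0.957) and DopEcR (0.950). For ple they were Prx6a (0.896), CG1635 (0.889) and Mt2 (0.866). For Ddc they were LeuRS (0.934), CG6142 (0.934) and klg (0.926). For Tbh they were Lnpk (0.940), Smg6 (0.935) and CG33203 (0.927). Among the 10 genes themselves, VAChT had its highest r with ChAT (0.717) and Gad1 (0.706) and its lowest with Ddc (−0.569). For ple the highest was with Ddc (0.547) and the lowest with VAChT (−0.442). For Ddc the highest were with Vmat (0.564) and ple (0.547) and the lowest with Gad1 (−0.601). For Tbh the highest were with Tdc2 (0.771), ChAT (0.696), VGAT (0.682) and Vmat (0.666), and the lowest with ple (0.0580).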

How the data were processed

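The authors' deposited tables hold RSEM expected counts per gene (estimated counts, already whole numbers), gene lengths, and their own comparisons as log2 fold changes with p-values. Reads were processed with Bowtie2 2.2.5, RSEM 1.2.12 and DESeq2 on dm6, per the submitters' processing notes. The deposited mean expression scores were not used. WT counts were identical in both tables, which were joined by gene identifier.

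Each comparison was fitted to its 8 samples with edgeR 4.0.16 (R 4.3.3): filterByExpr (minimum count 10, minimum total 15), TMM, quasi-likelihood test, Benjamini-Hochberg over all genes, and a call at adjusted p under 0.05. DESeq2 1.42.0 and other settings were alternatives. Levels are CPM with 1 TMM scaling over 12 samples. Counts and shares of genes without overlap use the scaling of each 8-sample fit. Ratios used log2(CPM + 0.5) and an exact permutation test of 70 assignments. The fits were tested on simulated data.

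The main fits used no replicate block, and the labels do not pair the replicate numbers. Only in the blocked alternative were the numbers taken to pair L854F with JmjC, because deviations from the group means correlated at 0.133 to 0.210 in all 4 pairs. That choice was made from these same data. Different-numbered pairs of these groups ran from −0.296 to 0.126. The correlations are weak, and a different-numbered pair of WT and JmjC reached 0.157. Same-numbered WT pairs did not all pass 0.1. They ran from 0.0144 to 0.149 with L854F and from −0.0755 to 0.155 with JmjC.

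The members and lists were chosen with earlier results of these data known. All 10 genes, every called gene of the transmitter lists, and for each called member the 3 genes most like it are named. VGlut and Ddc share 39 and 88 exon bases with genes on the other strand. No sequences are printed.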

Additional observations from a re-analysis of the deposited data

Results flagged for a closer look

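Of 45 groups of 4 samples examined, 2 held a sample far from the other 3, and chance alone flags about 1 group in 20. For ple in JmjC, replicate 2 at 4.04 CPM stood above the others at 2.38 to 2.60, a gap of 0.868 of the group's range. For the log2 ratio of Tdc2 to Tbh in WT, replicate 3 at −2.16 stood below the others at −1.74 to −1.73, a gap of 0.969 of the range.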

How the results depend on the processing

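Without a block, edgeR called 0 of the 10 genes between the mutants. Scaling to library totals called 1, the fit over 12 samples 1, DESeq2 2 and the replicate block 3. Leaving out 1 sample gave 1 to 2 called genes in L854F against WT, 1 to 4 in JmjC against WT and 0 to 4 between the mutants, while genes called overall ranged from 307 to 426, 1148 to 1698 and 977 to 1725. WT replicate numbers were not taken to pair with those of the mutants, where the block called 3 and 4 of the 10, adding Vmat in both (−0.25, edgeR adjusted p = 0.0272, and −0.30, edgeR adjusted p = 0.00527). It gave 514 and 1647 genes. With no filter VAChT in JmjC was at 0.26 (edgeR adjusted p = 0.057).

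With library totals, calls split 240 higher and 243 lower in L854F against WT (277 and 227 with TMM), and 548 and 902 between the mutants (663 and 810). With a pseudocount of 2 the Tdc2 to Tbh ratio in L854F differed by 0.23 (exact permutation p = 0.0286). Leave-one-out changed the sign of some log2 fold changes that were not called: in L854F against WT, Gad1 ranged from −0.0566 to 0.108 and VAChT from −0.00247 to 0.0885. In JmjC against WT, Tdc2 ranged from −0.21 to 0.0117 and Tbh from −0.17 to 0.0557. Between the mutants, VGAT ranged from −0.0445 to 0.0205 and Vmat from −0.0408 to 0.118. The causes were not tested. Counts of 39 to 203 per sample limit the precision for ple.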

Other observations

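The deposited length of ple was 3257 bases in the L854F table and 3020 in the JmjC table, a larger relative difference than for 95.6% of the 13416 genes in both tables, of which 7979 had equal lengths. How the authors defined length is not given in the sources used here. The deposited lengths of Tbh, 4264 and 4314 bases, exceed its merged exons in annotation BDGP6.54, at 3868 bases.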
